A study of Homo sapiens with 6 samples.

Results

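The 45 genes described here decide whether a cell under stress stops, repairs itself or dies: the BCL2 family, the caspases with their inhibitors and receptors, and genes that the tumour suppressor p53 switches on. They were chosen by name, from a list of 52 entries, of which 2 were marked as excluded and 1, BIM, repeats BCL2L11. That left 49 genes in 8 roles, and 45 of them were measured among 19775 genes in all. BBC3, BIRC3, BTG2 and FDXR are not analysed here. A gene counted as measured when at least 1 probe set was annotated to it alone, and the brightest such probe set stood for it.

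Transcript levels came from 6 arrays, 3 of undifferentiated H9 cells and 3 of mesodermal progenitors made from the same line. H9, a widely used established line, was derived from a human embryo and its undifferentiated cells are abbreviated hESC. The progenitors had been cultured with BMP4, activin A, VEGF and FGF2 in Stemline II medium, and were sorted by flow cytometry on day 3.5 as cells with CD56 and without CD326. The labels name no sort for the stem cells and no unsorted cells of day 3.5, so that the effects of sorting and of differentiation cannot be told apart. In such bulk samples, fewer cells of a type and less RNA per cell cannot be told apart either.

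Apoptosis through mitochondria is set by the BCL2 family. BH3-only proteins sense stress and block the anti-apoptotic members, which frees BAX and BAK1 to open the outer mitochondrial membrane, so that cytochrome c leaks out and assembles APAF1 and caspase-9 into the apoptosome. Death receptors at the surface reach the same end through FADD and caspase-8, and p53 raises genes of both routes as well as genes of repair and growth arrest. Human pluripotent stem cells are known to sit close to the threshold of mitochondrial apoptosis and to die readily after DNA damage.

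p53 acts through a DNA element of 2 half-sites of 10 bases, and the sequences that hold it among these genes are shown here, since this element is what the genes named as p53 targets are taken to share. Windows from 250 bases before to 50 bases after each RefSeq transcript start (build GRCh38.p14) were on hand for 37 of the 49 genes, 66 windows in all. The p53 response element was searched with its half-sites adjacent or 1 base apart, the C and G of each core fixed and up to 2 other mismatches in all. The element reads the same on both strands. It lay in windows of 3 genes, MDM2, FAS and AEN, 4 windows of 66, against 0.533% of all 35116 windows. Capitals mark the element, and each sequence runs 5′ to 3′ on the plus strand.
MDM2, chr12:68808767-68809066: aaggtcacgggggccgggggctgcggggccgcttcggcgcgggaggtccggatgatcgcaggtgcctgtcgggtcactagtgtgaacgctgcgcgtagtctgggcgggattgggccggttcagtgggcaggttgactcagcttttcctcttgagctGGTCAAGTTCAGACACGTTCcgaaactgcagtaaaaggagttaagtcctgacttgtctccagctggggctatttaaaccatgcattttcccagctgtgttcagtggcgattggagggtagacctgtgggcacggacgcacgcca
FAS, chr10:88991181-88991480: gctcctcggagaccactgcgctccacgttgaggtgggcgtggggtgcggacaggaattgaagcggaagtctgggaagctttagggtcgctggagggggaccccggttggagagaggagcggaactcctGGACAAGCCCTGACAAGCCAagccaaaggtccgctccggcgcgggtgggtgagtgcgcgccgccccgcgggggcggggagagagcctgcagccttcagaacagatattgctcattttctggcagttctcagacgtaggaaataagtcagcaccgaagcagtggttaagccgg
AEN, chr15:88621090-88621389: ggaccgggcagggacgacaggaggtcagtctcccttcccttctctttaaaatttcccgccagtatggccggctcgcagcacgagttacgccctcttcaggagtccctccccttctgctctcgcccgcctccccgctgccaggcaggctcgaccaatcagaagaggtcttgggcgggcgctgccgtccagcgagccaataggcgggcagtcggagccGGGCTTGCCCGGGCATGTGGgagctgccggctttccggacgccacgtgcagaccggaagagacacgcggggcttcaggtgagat
The element stood at -94 to -75 from this start of MDM2, where RefSeq lists 4 windows, at -122 to -103 from 1 of 3 starts of FAS, and at -34 to -15 from the start of AEN. Each match had 2 mismatches. A match is a description of letters and shows no binding, and a window without one says nothing of sites elsewhere in the gene. MDM2 and AEN did not pass the test between the groups, and FAS fell.

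Levels are given as log2(intensity + 16) after quantile normalization, and a log2 change is the progenitor mean minus the hESC mean on that scale. Its standard error (SE) is the moderated one of limma, from 3 arrays a group and a variance that also draws on all genes. Changes were called with limma at an adjusted p under 0.05. Of the 45 genes 29 were called, 18 higher and 11 lower in the progenitors. That is 64.4%, where 47.9% of all genes were called, 26.7% higher and 21.2% lower. The arrays of the groups did not overlap for 34 members, against 57.3% of all genes. Bright genes pass such a test more often: among the brighter 50% of genes 64.1% were called, and of the 38 members there 25 were called (65.8%), a share near that background. Changes of at least 2-fold were found for 17 members (37.8%), 11 higher and 6 lower, against 16.6% of all genes, 9.39% higher and 7.22% lower. Among the brighter 50% of genes the shares were 36.8% of members and 22.5% of genes. Of 149 probe sets of the members 45 were higher and 27 lower, where 43.4% of all probe sets of 1 gene were called. Probe sets were called in opposite directions for 5 of the 33 members that had several. The median log2 change was 0.11 over the members and 0.04 over all genes, and the median size of the change, without its sign, was 0.53 against 0.32.

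**Figure D1:**
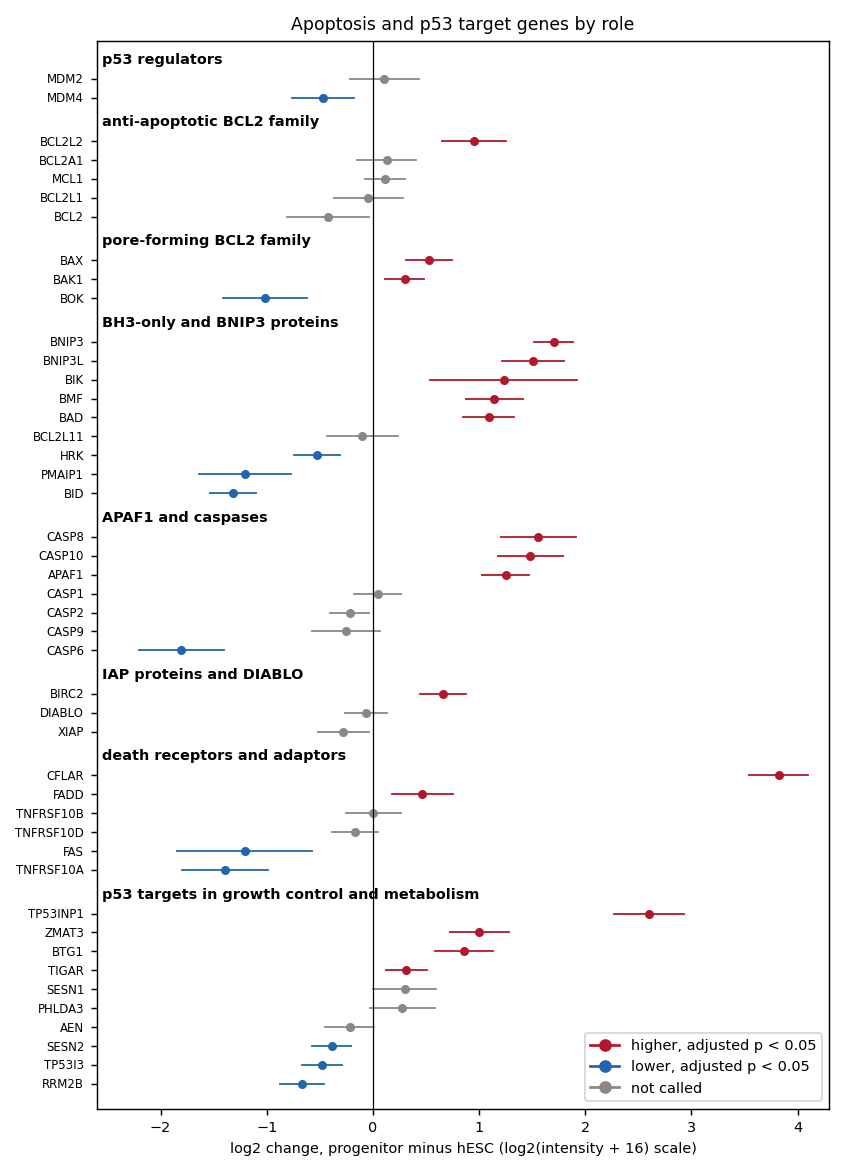
Log2 change of each of the 45 members, progenitor minus hESC, with its 95% confidence interval from limma, grouped by role. Changes run from -1.81 for CASP6 to 3.82 for CFLAR, and most roles hold members that rose and members that fell. The direction of SESN2 and TP53I3 turns under another scaling of the arrays.

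The sizes depend on how the arrays are put on 1 scale. Centring each array on the median of its gene values moved the median change of all genes to -0.15, and scaling on the hybridization controls moved it to 0.32. With these, 15 members were called higher and 18 lower, or 26 higher and 6 lower, in place of 18 and 11. The calls of all genes moved the same way. With gene centring 51.9% of all genes were called, 37.3% of those higher. With control scaling 56.1% were called, 81.9% of those higher, where after quantile normalization 47.9% were called, 55.8% of those higher. Of the scalings, only the control scaling turned the sign of called members, SESN2 (0.14) and TP53I3 (0.01). Relative to the median of all genes these were still at -0.18 and -0.31 there. With another choice of probe sets, without shared transcript matches, BOK, CASP8 and FAS turned too, on dimmer probe sets.

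**Figure D2:**
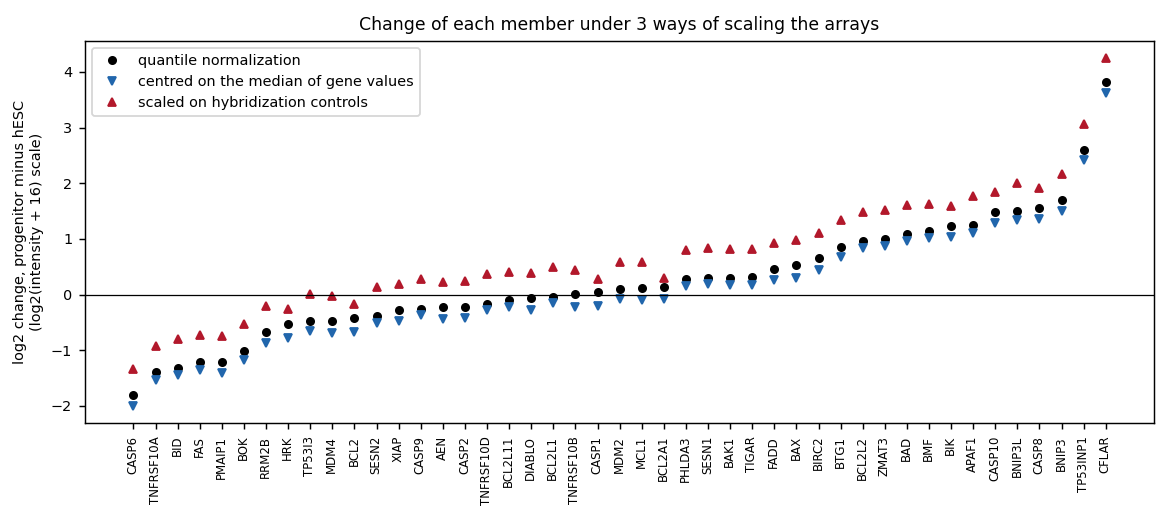
Log2 change of each member, progenitor minus hESC, under 3 ways of scaling the arrays, ordered by the change after quantile normalization. The control scaling lies above the other values for all 45 members, and members with small changes, among them SESN2 and TP53I3, cross 0.

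MDM2 and MDM4 bind p53 and hold it in check. MDM2 was not called and MDM4 was called lower, and the difference between the 2 genes was not tested. MDM2, the ligase that marks p53 for breakdown and is itself a p53 target, was at 9.41, 9.91 and 9.51 on hESC arrays 1 to 3 and at 9.63, 9.77 and 9.76 on the progenitor arrays. The groups overlapped, with a log2 change of 0.11 (SE 0.14, 95% interval -0.22 to 0.43, adjusted p = 0.57 with limma). It was called, at 0.58, only with the control scaling and, at 0.29, with array weights. Of its 10 probe sets 1, a dim one, was called, higher by 0.50. MDM4, a relative of MDM2 that masks the activation domain of p53, was at 10.48, 10.48 and 10.12 in hESC and at 9.78, 9.99 and 9.90 in the progenitors. All progenitor arrays lay below all hESC arrays, and it fell by 0.47 (SE 0.12, adjusted p = 0.0167). That call was lost without progenitor array 1 (-0.41), hESC array 1 (-0.41) or hESC array 2 (-0.41), with control scaling (-0.02) and on the mean of its probe sets (-0.12). Its probe sets disagreed: 236814_at fell by 1.17 and 225742_at rose by 0.49.

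Of the 5 anti-apoptotic BCL2 genes, whose proteins hold BAX, BAK1 and the BH3-only proteins bound, only BCL2L2 was called. That is 20%, where 47.9% of all genes were called. BCL2L2 (BCL-W) was at 7.82, 7.41 and 7.69 in hESC and at 8.45, 8.65 and 8.68 in the progenitors, an increase of 0.95 (SE 0.13, adjusted p = 0.000653). The dim other BCL2L2 probe set differed by 0.01 without a call. MCL1, a short-lived survival factor, was at 11.66, 11.57 and 11.69 in hESC and at 11.78, 11.75 and 11.72 in the progenitors. Its arrays did not overlap, but the log2 change of 0.11 (95% interval -0.08 to 0.30, adjusted p = 0.299 with limma) did not pass, and it turned to -0.09 with gene centring and to -0.05 on the mean of its probe sets. With control scaling MCL1 was called, at 0.58, and 1 of its other probe sets, 200798_x_at, fell by 0.41. BCL2L1 (BCL-X) was at 8.23, 7.81 and 8.33 in hESC and at 8.06, 8.10 and 8.09 in the progenitors. The progenitor arrays lay inside the range of hESC, with a log2 change of -0.04 (95% interval -0.37 to 0.28), and with control scaling BCL2L1 was called higher, at 0.50. BCL2 itself was dim, at 5.66 to 6.08 in hESC and 5.16 to 5.68 in the progenitors, and its change of -0.42 (adjusted p = 0.0712 with limma) passed without progenitor array 1 (-0.56), without normalization between arrays (-0.52), with gene centring (-0.67) and with array weights (-0.45). BCL2A1, at deposited intensities of 8.41 to 16.1 on all 6 arrays, was near the floor of the scale, and was called, at 0.27, with array weights.

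The pore-forming members split. BAX, a p53 target that permeabilises mitochondria, was tightly grouped in hESC, at 10.16, 10.14 and 10.15, and stood at 10.53, 10.76 and 10.74 in the progenitors. It rose by 0.53 (SE 0.09, adjusted p = 0.00228), and its second probe set rose by 0.51. BAK1, which does the same work at the mitochondrion, was at 8.57 to 8.66 in hESC and 8.87 to 8.94 in the progenitors, and rose by 0.30 (adjusted p = 0.0151). The BAK1 call was lost with gene centring (0.16) and without progenitor array 2 (0.29) or 3 (0.29). BOK, a relative that can act without BH3-only proteins, was at 9.75, 9.75 and 9.71 in hESC and at 9.11, 8.43 and 8.63 in the progenitors. It fell by 1.01 (SE 0.17, adjusted p = 0.00193), with progenitor array 1 nearest to hESC. The other BOK probe set, close to the floor at 4.47 and 4.54, differed by 0.08 without a call.

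BH3-only proteins carry the stress signal, and their genes were split by direction. Of 9 measured genes, with BNIP3 and BNIP3L counted here, 5 rose, 3 fell and 1 was not called, and 7 changed at least 2-fold, where 47.9% of all genes were called and 16.6% changed at least 2-fold. BNIP3, a mitophagy receptor and textbook target of hypoxia signalling, was at 9.18, 9.21 and 9.30 in hESC and at 10.93, 10.95 and 10.91 in the progenitors. It rose by 1.70 (SE 0.08, 3.26-fold, adjusted p = 3.11e-06), and its second probe set by 1.72. BNIP3L (NIX), its close relative in mitophagy, was at 8.20, 8.15 and 8.56 in hESC and at 9.86, 9.74 and 9.83 in the progenitors, an increase of 1.51 (SE 0.12, 2.84-fold, adjusted p = 5.38e-05). In both genes the arrays within a group lay much closer to each other than the groups did.

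The BNIP3 promoter window holds the hypoxia core ACGTG, and is shown because BNIP3 is known as a hypoxia target. No window of BNIP3L was on hand. ACGTG or its complement CACGT, searched on both strands with overlaps allowed, occurred in 21.4% of all windows, so that the match is common. It was in 17 of 66 windows and in 14 of 37 genes here. Of these APAF1, BAX, BNIP3, CASP8, CFLAR and TIGAR rose, and BID, FAS and MDM4 fell. MDM2, AEN, DIABLO and XIAP were not called, and BBC3 was not analysed. In BNIP3 the matches on the strands overlap in the 6 capital letters, at -134 to -129 from the start, on the minus strand.
BNIP3, chr10:131981874-131982173: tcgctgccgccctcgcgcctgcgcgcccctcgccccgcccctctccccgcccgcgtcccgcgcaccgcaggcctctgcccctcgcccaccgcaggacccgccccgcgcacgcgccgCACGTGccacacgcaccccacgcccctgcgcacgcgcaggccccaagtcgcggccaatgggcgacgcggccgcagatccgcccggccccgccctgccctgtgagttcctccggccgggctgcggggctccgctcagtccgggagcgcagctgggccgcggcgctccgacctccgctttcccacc
No measure of factor binding was made, and the match says nothing of what raised BNIP3.

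BAD, BMF and BIK completed the BH3-only genes that rose. BAD, which survival kinases silence by phosphorylation, was at 7.69, 7.44 and 7.75 in hESC and at 8.69, 8.70 and 8.77 in the progenitors, an increase of 1.09 (SE 0.10, adjusted p = 0.000108). A second BAD probe set, 1861_at, rose by 1.33, but the third, 232660_at, fell by 0.92. BMF, linked to loss of attachment, was at 6.99, 6.85 and 6.77 in hESC and at 7.81, 8.09 and 8.13 in the progenitors, and rose by 1.14 (SE 0.11, adjusted p = 0.000142). BIK, a BH3-only protein of the endoplasmic reticulum, was at 5.60, 5.84 and 6.29 in hESC and at 7.79, 6.79 and 6.83 in the progenitors. It rose by 1.23 (SE 0.29, adjusted p = 0.0107), and by 0.91 without progenitor array 1, which was the highest by 0.98 over the mean of the other progenitor arrays.

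Markers of endothelial cells stood apart on the same array. The summed intensity of 10 endothelial genes was 4677 on progenitor array 1, 1452 and 1561 on the other progenitor arrays, and 631 to 686 in hESC. For 9 of these 10 genes that array was above the mean of the other progenitor arrays, and the median difference over all 10 was 1.32, with CDH5 at 10.01 against 6.90 and 7.12. PECAM1, EMCN and CLDN5 were at 4.47 to 6.16 on all arrays, near the low end of the scale. Their part in the values of BIK, BOK (higher by 0.59 on array 1) and PMAIP1 (lower by 0.62) was not tested. All 3 kept their calls without that array. Over the 45 members that array was higher than the mean of the other progenitor arrays for 20, with a median difference of -0.03.

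BID, PMAIP1 and HRK fell. BID, which caspase-8 cleaves to carry the death receptor signal to mitochondria, was at 8.96, 8.92 and 9.01 in hESC and at 7.78, 7.60 and 7.56 in the progenitors. It fell by 1.32 (SE 0.09, adjusted p = 2.32e-05), and its other probe sets fell by 1.55 and 1.09. PMAIP1 (NOXA), the p53 target that neutralises MCL1, was at 10.53, 10.84 and 10.61 in hESC and at 9.05, 9.72 and 9.61 in the progenitors. It fell by 1.20 (SE 0.18, adjusted p = 0.00123), by 1.00 without progenitor array 1, and its second probe set fell by 1.74. HRK, a BH3-only gene of neurons, fell by 0.53 (adjusted p = 0.00252) from levels of 5.94 to 6.07, and was not called with control scaling (-0.26).

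BCL2L11 (BIM), a broad activator that binds all anti-apoptotic relatives, was the member of this role without a call. It was at 7.51, 7.20 and 7.73 in hESC and at 7.50, 7.30 and 7.34 in the progenitors, with a log2 change of -0.10 (95% interval -0.44 to 0.24). Its 7 probe sets did not all go the same way. Probe set 1555372_at fell by 2.25 from 7.60 to 5.35, 1553088_a_at rose by 0.45, and the remaining 5 were not called.

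Of APAF1 and the 6 caspases measured, 3 rose and 1 fell. APAF1, the scaffold of the apoptosome and a p53 target, was at 8.21, 8.42 and 8.23 in hESC and at 9.50, 9.51 and 9.61 in the progenitors, an increase of 1.25 (SE 0.09, adjusted p = 3.27e-05). CASP8, the initiator caspase of death receptors, was at 5.66, 5.36 and 5.79 in hESC and at 7.40, 6.99 and 7.10 in the progenitors, and rose by 1.56 (SE 0.15, adjusted p = 0.000117). CASP10, a second initiator encoded next to CASP8, was at 5.36, 5.59 and 5.82 in hESC and at 6.97, 7.17 and 7.08 in the progenitors, and rose by 1.48 (SE 0.13, adjusted p = 7.24e-05). All 3 genes had no overlap between the groups, which held for 57.3% of all genes. Their other probe sets were near the floor and not called, 2 of APAF1, 2 of CASP8 and 3 of CASP10. For CASP8, a dim probe set without shared transcript matches differed by -0.03.

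CASP6, an executioner caspase, was the member that fell, and its probe sets pointed apart. On 211464_x_at it was at 10.97, 11.49 and 10.80 in hESC and at 9.30, 9.23 and 9.30 in the progenitors, a change of -1.81 (SE 0.17, 3.50-fold lower, adjusted p = 0.000108). On 209790_s_at it rose by 0.44, from 9.01 to 9.44, and the mean of both fell by 0.68. The direction of CASP6 is therefore given for the probe set, not for the gene. CASP2, a caspase that p53 can engage through PIDD1, was at 9.93, 9.96 and 9.86 in hESC and at 9.73, 9.66 and 9.70 in the progenitors. Its arrays did not overlap, but the change of -0.22 missed the threshold (adjusted p = 0.0532 with limma). It passed in 8 of 19 alternatives in that direction, whereas the mean of its 7 probe sets rose by 0.30, with 3 of them called higher. CASP9, the initiator that binds APAF1, was at 7.76, 7.65 and 8.15 in hESC and at 7.65, 7.57 and 7.59 in the progenitors, a difference of -0.25 (95% interval -0.57 to 0.07) that passed with gene centring (-0.36). CASP1, which matures interleukin-1 beta, was dim and differed by 0.04, and was called, at 0.64, on another probe set, without shared transcript matches.

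**Figure D3:**
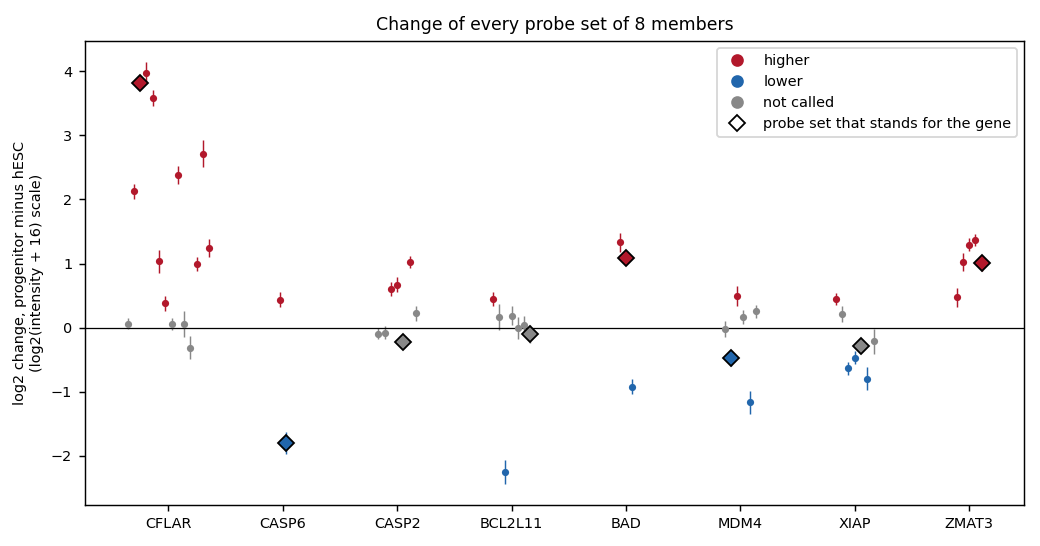
Log2 change with SE of every probe set of 8 members, progenitor minus hESC. Diamonds mark the probe set that stands for the gene. All 5 probe sets of ZMAT3 and 10 of 14 of CFLAR were higher, while CASP6, BCL2L11, BAD, MDM4 and XIAP each had probe sets called in opposite directions.

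Among the inhibitors of apoptosis, which bind caspases or tag signalling proteins with ubiquitin, BIRC2 (cIAP1) rose. It was at 10.24, 9.98 and 10.12 in hESC and at 10.76, 10.79 and 10.77 in the progenitors, an increase of 0.66 (SE 0.09, adjusted p = 0.000811). XIAP, the inhibitor that binds caspases most directly, was at 9.93, 10.04 and 9.74 in hESC and at 9.57, 9.68 and 9.63 in the progenitors. The arrays did not overlap, and the change of -0.28 did not pass (adjusted p = 0.0565 with limma). It passed in 8 of 19 alternatives, among them the fit without hESC array 3 (-0.36), and turned to 0.19 with control scaling. Of its 7 probe sets 3 fell, by 0.47 to 0.80, and 1 rose, by 0.44. DIABLO (SMAC), which leaves mitochondria to remove such inhibitors from caspases, was at 10.40, 10.30 and 10.46 in hESC and at 10.27, 10.36 and 10.33 in the progenitors, with overlapping groups and a difference of -0.07 (95% interval -0.26 to 0.13). It was called in opposite directions by the other scalings, lower with gene centring (-0.28) and higher with control scaling (0.38).

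On the probe sets that stand for the genes, the largest change of all members was in the death receptor pathway. CFLAR (c-FLIP), a caspase-8 relative that blocks or tunes caspase-8 at the receptor, was at 6.83, 6.73 and 7.08 in hESC and at 10.57, 10.75 and 10.78 in the progenitors. The deposited intensity was 94.3 to 117 in hESC and 1472 to 1697 in the progenitor arrays. On this probe set, 209939_x_at, CFLAR rose by 3.82 (SE 0.12, 14.1-fold, adjusted p = 5.57e-07). That was more than any other of the 45 genes under each of the 3 scalings. The size and the rank hold for probe sets with shared transcript matches. Without such matches, 239629_at rose by 1.24 and 235427_at by 1.00, less than TP53INP1 (2.60), and 214618_at (0.05) and 217654_at (-0.31) were not called. Of its 14 probe sets 10 rose, by 0.38 to 3.98, and 4 were not called, among them 208485_x_at and 211862_x_at at 0.06 each. CFLAR, CASP8 and CASP10 are neighbours in 1 gene cluster, and all rose.

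The receptors of the same pathway among the members fell or did not pass after quantile normalization. FAS, the receptor of FAS ligand and a p53 target, was at 7.96, 8.61 and 7.49 in hESC and at 6.55, 7.00 and 6.88 in the progenitors. The hESC arrays were spread over more than 1 log2 unit, and FAS fell by 1.21 (SE 0.27, adjusted p = 0.00809), or by 0.91 without hESC array 2. Of its 5 probe sets 3 fell and the other two were not called, at -0.33 and 0.08. TNFRSF10A (TRAIL-R1) was at 8.03, 8.38 and 7.72 in hESC and at 6.83, 6.57 and 6.56 in the progenitors. It fell by 1.39 (SE 0.17, adjusted p = 0.000423), and its other probe sets fell by 0.92 and 0.82. TNFRSF10B (TRAIL-R2), the receptor of the same ligand that is the better known p53 target, was at 10.29, 10.52 and 10.17 in hESC and at 10.40, 10.30 and 10.29 in the progenitors. Its groups overlapped fully, at a log2 change of 0.00 (95% interval -0.25 to 0.26), and it was called higher with control scaling (0.45). TNFRSF10D, a decoy receptor, was at 8.22, 8.27 and 8.24 in hESC and at 8.23, 7.97 and 8.03 in the progenitors, and its difference of -0.17 did not pass (adjusted p = 0.187 with limma), though it did without progenitor array 1 (-0.24), with gene centring (-0.27) and array weights (-0.21), and in the other direction with control scaling (0.38). FADD, the adaptor between these receptors and caspase-8, was at 9.55 to 9.79 in hESC and at 9.99 to 10.32 in the progenitors. It rose by 0.47 (adjusted p = 0.0162), a call that was lost with gene centring (0.27) and without hESC array 1 (0.44) or 2 (0.42).

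**Figure D4:**
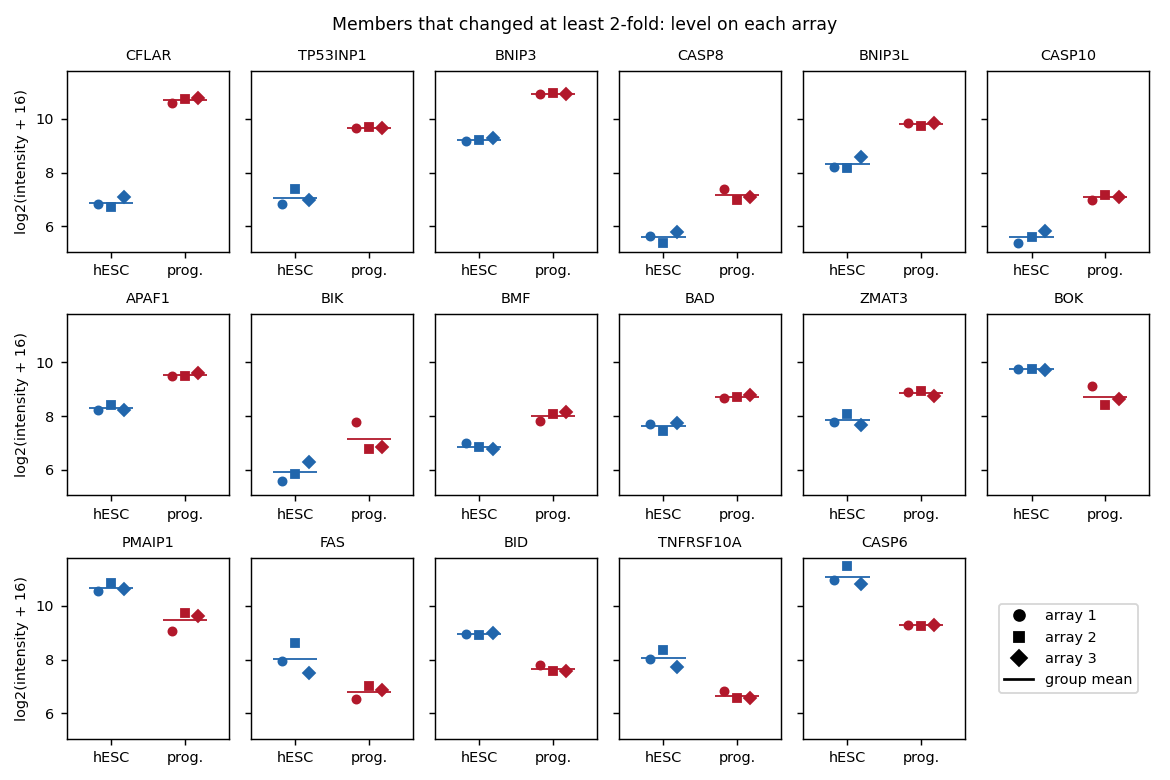
Level of each of the 17 members that changed at least 2-fold, as log2(intensity + 16), on the 3 hESC and 3 progenitor arrays, with a line at each group mean. No member has overlapping groups. BIK and BOK are highest among progenitors on array 1, where PMAIP1 is lowest, and FAS has the widest spread in hESC.

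The remaining p53 targets, genes of growth control, redox state and repair, moved both ways: 4 of 10 rose, 3 fell and 3 were not called. The share called was 70%, against 47.9% of all genes and 64.1% of the brighter genes. With control scaling 6 rose, while RRM2B, TP53I3 and SESN2 lost their calls. Of all genes 56.1% were called with that scaling, 81.9% of those higher. TP53INP1, a nuclear partner of p53 that also acts in autophagy, was at 6.85, 7.38 and 6.98 in hESC and at 9.65, 9.70 and 9.67 in the progenitors. It rose by 2.60 (SE 0.14, 6.06-fold, adjusted p = 6.92e-06). Its other probe sets, both dim, were not called, at -0.24 and 0.09. ZMAT3, an RNA-binding p53 target, was at 7.79, 8.06 and 7.68 in hESC and at 8.88, 8.92 and 8.75 in the progenitors, and rose by 1.00 (SE 0.12, adjusted p = 0.000339). All 5 ZMAT3 probe sets rose, by 0.48 to 1.37. BTG1, an antiproliferative partner of mRNA deadenylases, rose by 0.86 (adjusted p = 0.000698) with hESC arrays between 9.13 and 9.50 and progenitor arrays between 10.08 and 10.13, and a second probe set rose by 0.71, while its dim remaining probe set differed by 0.05 without a call. TIGAR, which lowers glycolytic flux, rose by 0.31 (adjusted p = 0.0166), a call that was lost with gene centring (0.17) and without progenitor array 2 (0.32) or 3 (0.28) or hESC array 1 (0.28).

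RRM2B, TP53I3 and SESN2 fell. RRM2B, the p53-induced subunit of ribonucleotide reductase, was at 10.32, 10.26 and 10.36 in hESC and at 9.53, 9.71 and 9.70 in the progenitors, a fall by 0.67 (adjusted p = 0.000565) that was not called with control scaling (-0.20). TP53I3, a quinone oxidoreductase, fell by 0.48 (adjusted p = 0.00198) and SESN2, a sensor of leucine that restrains mTORC1, by 0.39 (adjusted p = 0.00478), and both turned, to 0.01 and 0.14 without a call, with control scaling. The other SESN2 probe set differed by -0.11 without a call. AEN, a nuclease induced by p53 and 1 of the 3 genes with the element in a window, was at 10.40, 10.40 and 10.62 in hESC and at 10.35, 10.21 and 10.20 in the progenitors. It differed by -0.22 without passing (adjusted p = 0.11 with limma), and by 0.23, without a call, with control scaling. It was called lower with gene centring (-0.44), without normalization between arrays (-0.29) and with array weights (-0.21). PHLDA3, a p53 target that restrains AKT, was at 8.42, 8.50 and 8.38 in hESC and at 8.43, 8.83 and 8.87 in the progenitors. Its difference of 0.28 (adjusted p = 0.123 with limma) passed without progenitor array 1 (0.42), which lay inside the range of hESC, with array weights (0.40) and with control scaling (0.81). SESN1, a relative of SESN2, differed by 0.30 (adjusted p = 0.0954 with limma), and passed without progenitor array 1 (0.39) or hESC array 2 (0.40), with array weights (0.47) and with control scaling (0.83).

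Other genes of both pathways were read the same way. Of 25 further apoptosis genes 7 rose, 2 fell and 16 were not called, so that 36% were called, against 47.9% of all genes. With gene centring 5 rose and 5 fell, and with control scaling the 15 that were called were all higher. The mitochondrial proteins ENDOG, a nuclease, and HTRA2, a protease that counters inhibitors of apoptosis, rose by 1.16 and 1.15, BCL2L13 by 1.12 and CRADD, the adaptor of caspase-2, by 1.09. The receptor TNFRSF1A rose by 0.58 (adjusted p = 0.00153 with limma), and the receptor TNFRSF10C did not pass (0.26). DFFA, which holds the DNA-cutting nuclease of apoptosis inactive, fell by 0.67, and was not called with control scaling (-0.21). Cytochrome c (CYCS) and the mitochondrial channel VDAC2 did not pass, at -0.07 and -0.01. With control scaling both were called higher, at 0.43 and 0.47.

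Of 31 further genes of the p53 pathway 14 rose, 9 fell and 8 were not called, with a median of 0.24. The share called was 74.2%, against 47.9% of all genes and 64.1% of the brighter 50%. With gene centring 11 rose and 13 fell, and with control scaling 18 rose and 2 fell. Changes of at least 2-fold were found for 7 of them, 5 higher and 2 lower (22.6%, against 16.6% of all genes and 22.5% of the brighter 50%). The growth arrest genes GADD45A and CDKN1A, and the secreted stress factor GDF15, all p53 targets, rose by 2.47, 2.21 and 2.21. CDKN1A was at 8.30, 8.63 and 7.95 in hESC and at 10.10, 10.70 and 10.70 in the progenitors. TRIM22, a p53 and interferon target, fell by 3.56, from 10.70, 10.90 and 10.48 in hESC to 6.96, 7.21 and 7.22, and STEAP3, a ferrireductase, fell by 2.07. Cyclin G1 (CCNG1) and TRIAP1 did not pass, at -0.13 and -0.14. With control scaling both turned, CCNG1 to 0.39 with a call and TRIAP1 to 0.30 without one.

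The labelled cell types matched their defining genes. All 10 mesoderm genes rose, with intensities that summed to 221 to 320 in hESC against 21982 to 22321 after differentiation, and all 9 measured genes of pluripotent cells fell, from 38294 to 41757 in hESC to 12716 to 13002, with 8 called under control scaling. The sort antigens moved as sorted, with NCAM1 (CD56) higher by 3.46 and EPCAM (CD326) lower by 2.33. Of other cell types, 4 of 10 endothelial, 1 of 7 blood, 5 of 9 endoderm and 2 of 10 neuroectoderm genes were higher. Over all genes 26.7% were called higher. Endoderm genes summed to 2583, 1552 and 1530 on progenitor arrays 1 to 3 and to 877 to 1012 in hESC. In blood genes, SPN fell and PTPRC was at 4.75 to 5.01 on all arrays. In the array controls, the log2 ratio of the 3′ to the 5′ probe set of ACTB was 0.55 to 1.09 in hESC and 0.43 to 0.52 in the progenitors (difference -0.29, two-sided exact permutation p = 0.1, the smallest that 3 against 3 arrays allow). That of GAPDH differed by 0.065 (two-sided exact permutation p = 0.3). The part of these in the members' values was not tested.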

How the data were processed

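The deposited values, 1 table of 54675 probe sets on 6 arrays, are intensities on a linear scale, as the authors' values themselves show; how they were summarised and scaled is not given in the sources used here. Array medians were 33.1 to 36.1 (hESC) and 31.0 to 31.2 (progenitors), and 2.15% of values were at or under 1, so low levels carry little information. The labels' protocols name RNeasy and MessageAmp Premier kits, and do not say whether separate cultures were used: p-values then measure only how these samples vary, possibly for technical reasons.

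Values were converted to log2(intensity + 16) and quantile-normalized, because the medians of the arrays spanned 0.1495. Of all probe sets 41097 were annotated to 1 gene, 1801 to several and 11777 to none. Each gene took its probe set with the highest mean. A fit with lmFit and eBayes of limma 3.58.1 (R 4.3.3) compared the groups over 19775 genes, with Benjamini-Hochberg adjustment over all of them; all adjusted p-values come from it, and those of single probe sets from the same fit over 41091 probe sets of 1 gene. The fit was tested on simulated data, and the outcome is not reported here. Sequences come from RefSeq's promoter table. Figures were drawn with matplotlib 3.10.9.

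Members, lists and alternatives were chosen with earlier results of these data known. All members may be named; those called with at least a 2-fold change, and up to 2 of each role that were not called, have their values on each array. Of the other lists the text names the 5 largest called changes and the 2 brightest genes not called, and adds the receptors TNFRSF1A and TNFRSF10C. Alternatives were other pseudocounts, scalings, filters, probe set choices and variance models, a replicate block, averaging progenitor arrays 2 and 3, and leaving out each array.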

Additional observations from a re-analysis of the deposited data

How the results depend on the processing

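Of the 29 called members 17 kept their direction and their call in all alternatives that could be run for them: BCL2L2, BAX, BID, BAD, BIK, BMF, PMAIP1, BNIP3, BNIP3L, APAF1, CASP6, CASP10, BIRC2, TNFRSF10A, CFLAR, TP53INP1 and ZMAT3. Leaving out probe sets with shared transcript matches could not be run for BAX, PMAIP1, APAF1 and CASP6, which have no others. CASP6 is listed although its other probe set, 209790_s_at, was called higher, at 0.44. The number of members called ran from 20 to 38 over all alternatives. The 20 were of 36 members tested without probe sets with shared transcript matches, where 44.8% of all genes were called. The 38 came with array weights, where 63.5% of all genes were called. The number was 28 with the replicate block (44.9% of all genes) and 26 to 32 when arrays were left out (40% to 47.2%). With progenitor arrays 2 and 3 averaged the number was 27 (40.9% of all genes), and BAK1 lost its call (0.29, adjusted p = 0.0639 with limma). Correlations between arrays ran from 0.991 to 0.997 within the progenitors and from 0.991 to 0.994 within hESC. At an adjusted p under 0.01 the number of members called was 24, where 7028 of 19775 genes were called. Arrays with the same replicate number did not deviate together (r of -0.022, 0.027 and -0.038 over 19775 genes), and the replicate block ended the call of BAK1 (adjusted p = 0.0534 with limma) and no other call of a member. The 11 members called lower were 18 with centring on gene values and 6 with scaling on hybridization controls. They were 5, of 36 members tested, when probe sets with shared transcript matches were left out. The 9 other apoptosis genes called were 15, all higher, with scaling on hybridization controls and 17 with array weights. The 23 other p53 pathway genes called were 13 at an adjusted p under 0.01 and 17 with progenitor arrays 2 and 3 averaged. They were 15 to 21 when arrays were left out, with 15 without progenitor array 2.

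The sign of these members turned. With centring on gene values MDM2 was at -0.086, MCL1 at -0.090, BCL2A1 at -0.079, CASP1 at -0.20 and TNFRSF10B at -0.22. With scaling on hybridization controls BCL2L1 was at 0.50, BCL2L11 at 0.41, CASP2 at 0.25, CASP9 at 0.28, XIAP at 0.19, DIABLO at 0.38, TNFRSF10D at 0.38, SESN2 at 0.14, TP53I3 at 0.013 and AEN at 0.23. Of these BCL2L1, DIABLO and TNFRSF10D were called higher there. Without normalization between arrays BCL2L1 was at 0.00475, CASP1 at -0.055 and TNFRSF10B at -0.072. On the mean of probe sets MCL1 was at -0.047, CASP2 at 0.30, with a call, and TNFRSF10B at -0.093, and with array weights TNFRSF10B was at -0.00149. Without probe sets with shared transcript matches BOK was at 0.075, CASP8 at -0.030, CASP9 at 0.00932 and FAS at 0.083, on other, dimmer probe sets. When arrays were left out BCL2L1 ran from -0.20 to 0.061, BCL2L11 from -0.24 to 0.027, CASP1 from -0.00621 to 0.12 and TNFRSF10B from -0.076 to 0.10. The cause was not tested. The ratios of array controls kept their sign after quantile normalization, at 0.06 for GAPDH and -0.34 for ACTB. Low signal limits BCL2A1, CASP1, BCL2 and HRK most, and 3 arrays a group limit the precision throughout.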
